A study of Mus musculus with 4 samples.

Results

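Imprinted genes are expressed mainly from the allele inherited from 1 parent, and 36 of them were followed here in fetal mouse kidneys labelled Sall1 knockout and in their controls. The genes were taken from a list of imprinted loci and found on the arrays through the RefSeq accession of each probe, with the brightest probe standing for each gene. Of the 36 genes, 34 had at least 1 probe (58 probes in all, of 55681 on the array), and 33 were tested among 25099 genes and unnamed sequences. No probe was matched to H19 or Rian, which are not analysed here, and the single Rtl1 probe stayed within background on all 4 arrays.

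The knockout group comprised 2 arrays of kidneys labelled Sall1 knockout, and the control group 2 arrays of kidneys labelled control. All came from embryos of mixed 129 and C57BL/6 background taken at E13.5, and tamoxifen had been given at E12.5, 24 hours earlier, per the labels. Tamoxifen activates CreER, a Cre recombinase fused to a hormone-binding domain, and the titles name CreER for the knockout samples and flox for the controls. An effect of CreER itself therefore cannot be told apart from that of Sall1 loss. The labels call the line Sall1CreER and do not say which promoter drives it. They also leave unsaid how many embryos made up a sample, and the p-values measure no more than the spread between these samples, which may be technical.

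Imprinting is set in the germ line by DNA methylation of control regions, and many imprinted genes lie in clusters in which 1 such region governs maternally and paternally expressed neighbours. In the fetus several of these genes act on growth: Cdkn1c, Grb10 and Phlda2 restrain it, whereas Peg3 and Mest are needed for full growth. Cdkn1c, the cyclin-dependent kinase inhibitor p57, is also needed for normal development of the renal medulla.

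Signals are given as relative signals, the processed signal of a probe divided by the 75th percentile of its array, and they are compared between arrays and not between genes. The deposited scanner file of control replicate 1 holds its processed signals rounded to at most 3 significant digits, while those of the other 3 arrays have up to 7. This rounding moved its single-spot probes by at most 0.498%. The deposited value table holds that array with more digits, and with it no imprinted gene moved by more than 0.00598 on the log2 scale and 33 of 33 kept their sign. Differences below that size, such as that of Airn, have no direction. Between 60.6% and 64.2% of non-control spots were well above background per array, and all 4 arrays lay on 1 slide. Sall1, the targeted gene, had relative signals of 2.04 and 2.09 in the knockout arrays, against 3.45 and 3.49 in the control arrays. Its log2 difference, knockout minus control, was -0.75 ± 0.056 (SE) and did not pass over all genes in limma (adjusted p = 0.125). It did pass with normexp background correction (adjusted p = 0.0402), with the trended prior (0.00996) and with the trended robust prior (0.00143). The sources used here do not place its probe inside or outside the deleted part. In the same arrays 11 of 14 nephron progenitor markers (78.6%), Sall1 itself among them, lay lower in both knockout arrays, against 27.4% of all genes tested. The 14 markers had summed relative signals of 94.6 and 102 in the knockout and 144 and 137 in the control arrays. In whole kidneys, fewer cells of a type and less RNA per cell cannot be told apart.

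Promoter windows of RefSeq (build GRCm38.p6, 250 bases before to 50 after the gene start) were matched for 28 of the 36 genes, 41 windows in all. They were searched on both strands for TGCCGC, the hexamer that the zinc finger protein ZFP57 binds in its methylated form at imprinting control regions. It was present in 9 of the 41 windows (22.0%), belonging to Commd1, Grb10, Meg3, Mest, Nnat, Plagl1, Snrpn and Zim1, against 11.6% of all 32851 windows. The imprinted windows held a median of 13 CG dinucleotides, against 7 over all windows. The windows below belong to the genes that the results turn on, with the hexamer or its reverse complement, GCGGCA, in capitals. Where a gene had several windows, one with the most copies of the hexamer was chosen. A match is a description of the sequence and does not show binding.
Dlk1 (chr12:109452573-109452872, plus strand): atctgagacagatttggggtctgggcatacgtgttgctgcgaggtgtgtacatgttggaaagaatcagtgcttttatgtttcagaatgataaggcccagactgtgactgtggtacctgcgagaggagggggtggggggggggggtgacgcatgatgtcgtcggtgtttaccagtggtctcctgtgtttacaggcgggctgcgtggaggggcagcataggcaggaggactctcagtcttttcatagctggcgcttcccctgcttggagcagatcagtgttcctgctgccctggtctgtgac
Meg3 (chr12:109540746-109541045, plus strand): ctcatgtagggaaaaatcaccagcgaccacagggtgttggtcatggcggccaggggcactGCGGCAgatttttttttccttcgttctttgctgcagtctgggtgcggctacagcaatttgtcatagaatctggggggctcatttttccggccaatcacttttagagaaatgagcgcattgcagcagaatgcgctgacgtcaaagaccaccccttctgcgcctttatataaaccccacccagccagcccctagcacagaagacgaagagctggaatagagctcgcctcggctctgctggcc
Mirg (chr12:109734731-109735030, plus strand): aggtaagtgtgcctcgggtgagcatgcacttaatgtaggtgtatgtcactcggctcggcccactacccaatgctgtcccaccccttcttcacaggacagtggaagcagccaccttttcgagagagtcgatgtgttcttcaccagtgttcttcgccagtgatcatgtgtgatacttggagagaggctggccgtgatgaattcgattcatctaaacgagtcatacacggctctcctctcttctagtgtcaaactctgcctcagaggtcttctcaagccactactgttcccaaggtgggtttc
Nnat (chr2:157559828-157560127, plus strand): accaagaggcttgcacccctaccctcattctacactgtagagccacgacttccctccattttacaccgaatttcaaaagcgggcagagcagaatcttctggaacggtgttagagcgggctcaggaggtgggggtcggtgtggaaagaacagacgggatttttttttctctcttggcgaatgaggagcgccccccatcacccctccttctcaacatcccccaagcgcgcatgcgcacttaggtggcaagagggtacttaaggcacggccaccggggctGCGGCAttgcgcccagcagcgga
Mest (chr6:30737800-30738099, plus strand): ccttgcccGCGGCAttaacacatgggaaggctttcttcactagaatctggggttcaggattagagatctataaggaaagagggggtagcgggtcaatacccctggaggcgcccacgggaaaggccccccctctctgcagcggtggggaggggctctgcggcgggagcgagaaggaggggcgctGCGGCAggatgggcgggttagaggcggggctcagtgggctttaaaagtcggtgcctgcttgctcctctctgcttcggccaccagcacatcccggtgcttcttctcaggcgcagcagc
Peg3 (chr7:6730370-6730669, minus strand): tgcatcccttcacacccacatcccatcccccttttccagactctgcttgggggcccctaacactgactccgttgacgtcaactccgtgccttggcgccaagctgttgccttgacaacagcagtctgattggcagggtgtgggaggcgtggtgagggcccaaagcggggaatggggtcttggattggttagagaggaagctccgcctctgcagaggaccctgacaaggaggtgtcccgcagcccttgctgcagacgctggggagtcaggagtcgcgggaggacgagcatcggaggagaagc
Usp29 (chr7:6730333-6730632, plus strand): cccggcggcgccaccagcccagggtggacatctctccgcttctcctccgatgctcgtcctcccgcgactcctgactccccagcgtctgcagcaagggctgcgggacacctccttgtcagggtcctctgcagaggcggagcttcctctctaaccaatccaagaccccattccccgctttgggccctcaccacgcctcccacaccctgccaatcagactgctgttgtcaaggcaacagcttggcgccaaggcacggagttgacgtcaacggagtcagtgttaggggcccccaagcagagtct

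The windows of Peg3 and Usp29, which start from opposite strands, share 263 bases, so the same stretch of DNA holds the start of both genes. The Dlk1, Mirg, Peg3 and Usp29 windows hold no copy of the hexamer, the printed Meg3 and Nnat windows hold 1 each, and the printed Mest window holds 2. A further Meg3 window and a further Mest window, not printed, hold 0. Another Mest window overlaps the printed one almost fully, holds 2 as well and was counted separately.

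Mirg is a noncoding RNA that carries microRNAs: 19 mature microRNAs of RefSeq (GRCm38.p6) lie within it, and 2 lie within Mest. The arrays measured the host transcripts and not the mature microRNAs. A few are printed to show what the Mirg and Mest signals carry, with the seed (bases 2 to 8) in capitals. The 21 mature microRNAs have 20 distinct seeds, and the first pair below shares 1.
mmu-miR-453: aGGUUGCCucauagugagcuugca
mmu-miR-496a-5p: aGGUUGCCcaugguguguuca
mmu-miR-369-3p: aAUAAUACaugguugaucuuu
mmu-miR-409-3p: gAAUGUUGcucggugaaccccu
mmu-miR-410-3p: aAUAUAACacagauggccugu
mmu-miR-335-5p: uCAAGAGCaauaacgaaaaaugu

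Across the imprinted genes the differences were small and ran in both directions. Of the 33 genes tested, 18 were lower (54.5%, against 53.2% of all genes tested) and 15 higher in the knockout kidneys, and 25 lay less than 1.2-fold apart. By at least 1.2-fold, 4 were lower, where 6.3% of all genes tested were, and 4 were higher, where 10.2% were. The median log2 difference was -0.043, against -0.011 over all genes tested. In limma 0 of the 33 genes passed over all genes tested, where 0% of 25099 were called, and the smallest adjusted p of an imprinted gene was 0.271. An unadjusted p under 0.05 was reached by Magel2, Ascl2 and Kcnq1, which were higher, and by Nnat, Peg12, Mest and Peg3, which were lower. These 3 and 4 genes make up 21.2% of the 33, against 12.7% of all genes tested (6.86% higher and 5.84% lower). With median centring of the arrays the same threshold gave 1 higher and 4 lower imprinted genes, and over all genes 1251 higher and 1962 lower in place of 1722 and 1465. The 2 knockout values lay above both control values for 8 genes, where 21.8% of all genes tested did so, and below both for 11, where 27.4% did. Together these were 57.6% of the 33, against 49.2% of all genes tested. With a difference of at least 1.2-fold as well, 2 genes lay higher (Meg3 and Magel2), where 8.12% of all genes tested did, and 4 lower (Dio3, Nnat, Peg12 and Peg3), where 5.11% did.

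The parental allele of each gene was assigned from reports in mouse tissues and was not measured in these kidneys, where it may differ. By this assignment, the 15 maternally expressed genes had a median of -0.043, and 6 of them lay higher and 5 lower without overlap of the groups. The 18 paternally expressed genes had a median of -0.039, with 2 higher and 6 lower without overlap. Over all genes tested 21.8% lay higher and 27.4% lower in this way. All 4 genes with an unadjusted p under 0.05 that were lower are paternally expressed. The difference between the alleles was not tested.

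**Figure D1:**
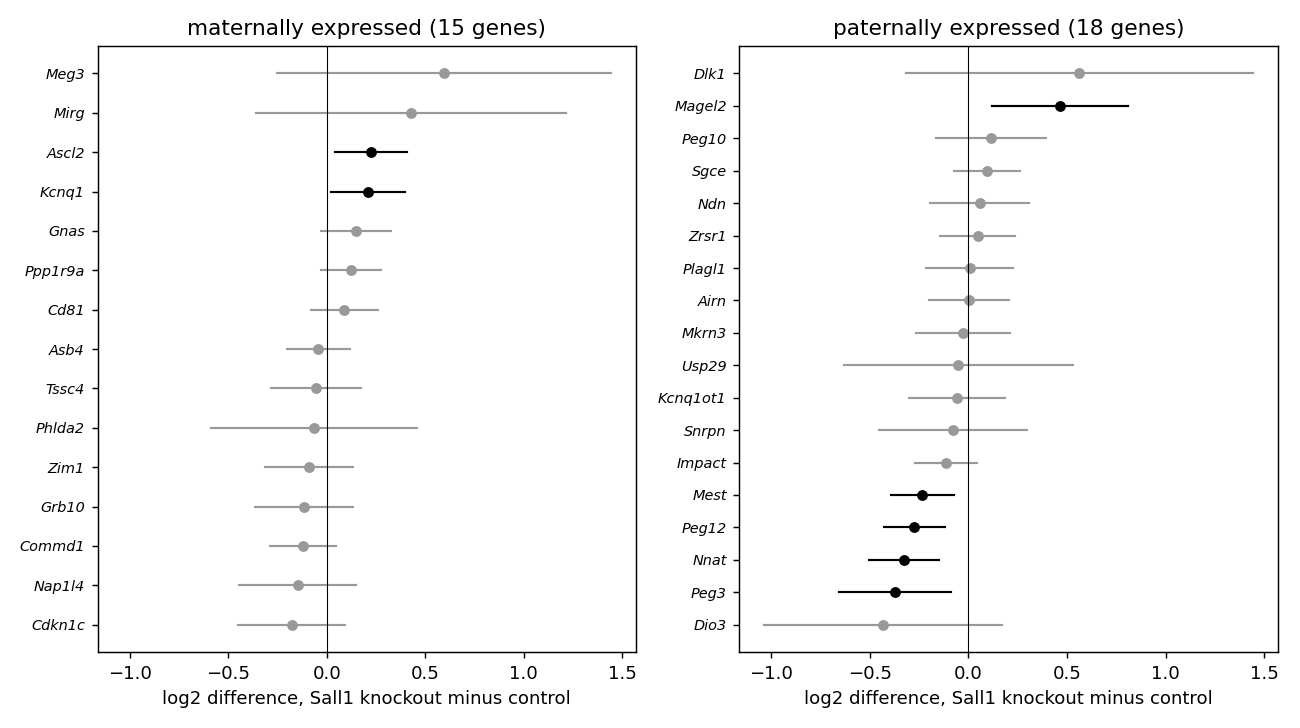
Log2 difference, Sall1 knockout minus control, of each imprinted gene tested (points) with the 95% confidence interval of limma (lines), for 15 maternally expressed genes on the left and 18 paternally expressed genes on the right; black marks an unadjusted p under 0.05. The 7 black genes lie between -0.37 (Peg3) and 0.46 (Magel2), and the widest intervals belong to Dlk1, Meg3 and Mirg.

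In the Dlk1-Dio3 domain on chromosome 12, Meg3 and Dlk1 had the largest positive differences of the 33 genes, and Mirg came after Magel2. The 2 control arrays differed more in Dlk1, Meg3 and Mirg than the groups did. Dlk1, a paternally expressed membrane protein with EGF repeats related to Notch ligands, had relative signals of 48.0 and 35.6 in the knockout arrays, against 36 and 21.8 in the control arrays. Meg3, a maternally expressed noncoding RNA, had 55.0 and 43.1 in the knockout arrays, against 41.5 and 25.0 in the control arrays. Mirg, transcribed from the same maternal allele, had 7.96 and 6.05 in the knockout arrays, against 6.43 and 4.13 in the control arrays. In all of these transcripts knockout replicate 1 was the highest and control replicate 2 the lowest array, and the groups overlapped for Dlk1 and Mirg and missed each other narrowly for Meg3.

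The log2 difference was 0.56 ± 0.31 (SE) for Dlk1 and 0.60 ± 0.30 for Meg3, with adjusted p of 0.502 and 0.480 in limma. For Mirg it was 0.43 ± 0.28 (adjusted p = 0.552 in limma). The size rested on single arrays. Without control replicate 2 the log2 differences were 0.20, 0.23 and 0.11 for Dlk1, Meg3 and Mirg, and without control replicate 1 they were 0.93, 0.96 and 0.75. Without knockout replicate 1 they were 0.35, 0.42 and 0.23. Between the control arrays alone, replicate 1 over replicate 2, Dlk1 differed 1.65-fold, Meg3 1.66-fold and Mirg 1.56-fold, and these were the only 3 of the 33 genes with a gap of at least 1.5-fold there. The other Meg3 and Dlk1 probes gave the same order of the extremes, with log2 differences of 0.32 and 0.52 for Meg3 and 0.63 for Dlk1. Overlap of the groups depended on the probe. Both other Meg3 probes overlapped. The other Dlk1 probe did not, with 9.87 and 7.63 in the knockout arrays, against 7.03 and 4.46 in the control arrays.

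Dio3, the deiodinase that inactivates thyroid hormone and the last gene of the domain, was lower in the knockout arrays instead. Its relative signals were 0.0565 and 0.0383 in the knockout arrays, against 0.0650 and 0.0607 in the control arrays, with no overlap. The log2 difference was -0.43 ± 0.21 (SE; adjusted p = 0.478 in limma), and it was -0.088 with normexp background correction and -0.15 without knockout replicate 2. Its signal was near the background limit of the arrays.

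Markers of skeletal muscle and of stroma, like Dlk1, Meg3 and Mirg, summed highest in knockout replicate 1 and lowest in control replicate 2. This order held for 5 of the 33 imprinted genes (15.2%; the others were Magel2 and Gnas), against 11.01% of all 15105 named genes tested. Of 15 muscle markers 14 were tested (Ckm was not well above background). In both knockout arrays 12 (85.7%) lay higher and 1, Des (7.14%), lower, against 21.8% and 27.4% of all genes tested. The summed relative signals of the muscle markers were 106 and 72.7 in the knockout arrays, against 61.1 and 27.6 in the control arrays. The 12 stroma markers summed to 216 and 193 in the knockout arrays, against 185 and 148 in the control arrays. Of them 5 (41.7%) lay higher and 2 (16.7%), Foxd1 and Pdgfra, lower without overlap. Most of the stroma sum came from the collagen genes Col1a1, Col1a2 and Col3a1. Liver and gut markers, 14 of 14 higher without overlap, summed to 50.1 and 46.7 in the knockout arrays, against 15.1 and 23.7 in the control arrays, where the order within the controls was the opposite. The part of these tissues in the Dlk1, Meg3 and Mirg signals was not tested.

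**Figure D2:**
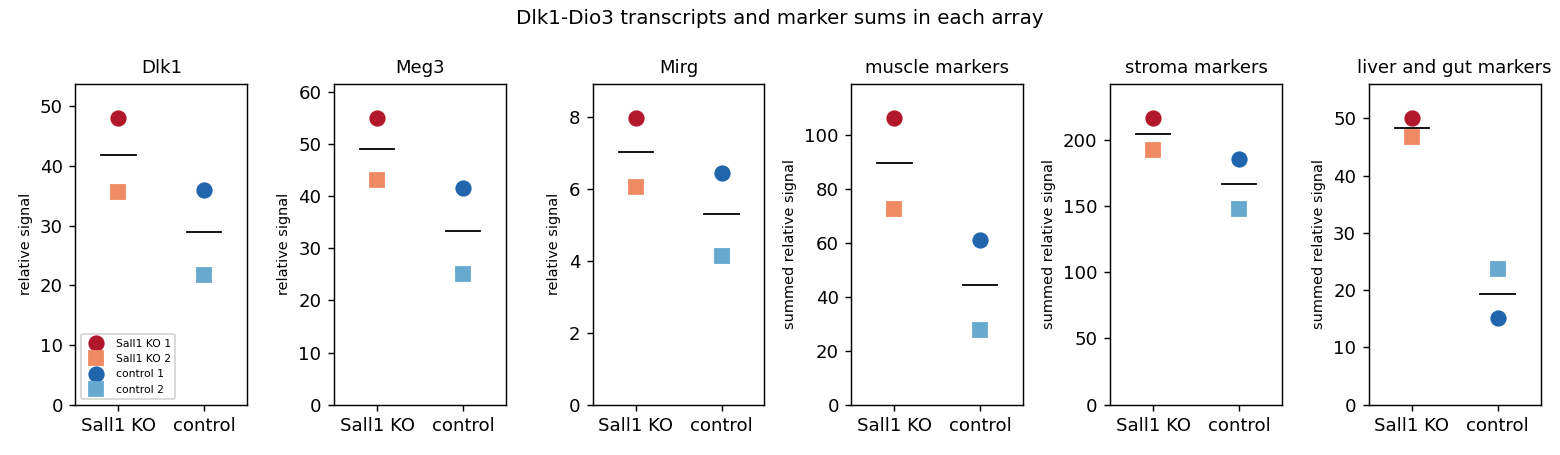
Relative signal of Dlk1, Meg3 and Mirg and summed relative signal of the muscle, stroma and liver and gut markers in each array, knockout on the left and control on the right of each panel; bars are group means and each axis starts at 0. Knockout replicate 1 is the highest array in every panel, and control replicate 2 the lowest in every panel but that of liver and gut, where control replicate 1 is.

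In the other direction, 4 paternally expressed genes were lower in both knockout arrays than in both control arrays by 1.18-fold to 1.29-fold. Nnat, which encodes neuronatin, a small membrane protein of the endoplasmic reticulum, had relative signals of 6.42 and 6.21 in the knockout arrays, against 7.73 and 8.12 in the control arrays. Its log2 difference was -0.33 ± 0.062 (SE; adjusted p = 0.271 in limma). The second Nnat probe gave 5.56 and 5.57 in the knockout arrays, against 6.85 and 7.16 in the control arrays, a difference of -0.33 as well. With a variance prior that follows the signal and resists outliers, Nnat was the only imprinted gene called (adjusted p = 0.0365 in limma), where 0.622% of all genes tested were called lower and 0.538% higher. Leaving out any 1 array kept its difference between -0.36 and -0.29.

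Mest, a hydrolase-fold protein whose gene also carries miR-335, had relative signals of 106 and 109 in the knockout arrays, against 128 and 126 in the control arrays. The log2 difference was -0.23 ± 0.057 (SE; adjusted p = 0.318 in limma), and all 3 Mest probes lay lower in both knockout arrays, by 1.16-fold to 1.24-fold. Peg12, a relative of the Frat proteins that bind GSK3, had 2.28 and 2.32 in the knockout arrays, against 2.80 and 2.76 in the control arrays. Its log2 difference was -0.27 ± 0.055 (SE; adjusted p = 0.278 in limma), while the other, dimmer probe differed by 0.046 and the mean over both by -0.11. For Mest and Peg12 the gap between groups exceeded the gap within either group. Other imprinted genes showed this too, and the share over all genes was not counted, so it does not set Mest and Peg12 apart.

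Neural markers were counted as well. Of the 14 neural markers 10 were lower (71.4%, against 53.2% of all genes tested), 6 of them without overlap (42.9%, against 27.4%). The neural markers summed to 37.7 and 36.2 in the knockout arrays, against 40.0 and 39.1 in the control arrays. Most of each sum was Snap25 alone, with 30.2 and 28.9 in the knockout arrays, against 32.5 and 30.5 in the control arrays. The part of neural tissue in the signals of the imprinted genes, lower or higher, was not tested. Nor was that of the nephron progenitor markers given above.

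In the Peg3 domain on chromosome 7, Peg3 was lower in both knockout arrays while its neighbours overlapped between the groups. Peg3, a zinc finger transcription factor, had relative signals of 3.40 and 3.25 in the knockout arrays, against 4.65 and 3.98 in the control arrays, with a log2 difference of -0.37 ± 0.10 (SE; adjusted p = 0.338 in limma). The second Peg3 probe overlapped between groups and differed by -0.23. Usp29, a deubiquitinase gene that starts from the promoter stretch printed above with Peg3, had 0.262 and 0.200 in the knockout arrays, against 0.270 and 0.208 in the control arrays. Its log2 difference of -0.051 ± 0.20 (SE) was small beside the gap within each group. Zim1, the maternally expressed zinc finger neighbour, differed by -0.091 ± 0.079.

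In the Prader-Willi region of chromosome 7, Magel2 was higher in both knockout arrays, Peg12, described above, was lower in both, and Ndn, Snrpn and Mkrn3 overlapped between the groups. Magel2, a MAGE family protein that works with E3 ubiquitin ligases, had relative signals of 0.782 and 0.711 in the knockout arrays, against 0.593 and 0.493 in the control arrays. Its log2 difference was 0.46 ± 0.12 (SE; adjusted p = 0.332 in limma), and it ran between 0.33 and 0.60 with any 1 array left out. Like Dlk1, Meg3 and Mirg, Magel2 was highest in knockout replicate 1 and lowest in control replicate 2. Ndn, the related MAGE gene next to it that encodes necdin, had 3.63 and 3.54 in the knockout arrays, against 3.68 and 3.23 in the control arrays, a log2 difference of 0.057 ± 0.089. Snrpn, the splicing protein SmN, had 0.778 and 0.976 in the knockout arrays, against 0.943 and 0.898 in the control arrays. Mkrn3, a RING finger gene, differed by -0.026 ± 0.084. The Snrpn difference of -0.079 was smaller than the gap within the knockout group.

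In the Kcnq1 domain of chromosome 7, neither Cdkn1c nor the noncoding RNA that silences the domain reached an unadjusted p under 0.05. Cdkn1c had relative signals of 94.3 and 84.8 in the knockout arrays, against 106.7 and 95.8 in the control arrays. The groups did not overlap, but the log2 difference of -0.18 ± 0.096 (SE; adjusted p = 0.497 in limma) was about as large as the gap between the 2 control arrays, and its 95% interval ran from -0.45 to 0.094. Kcnq1ot1, the paternally expressed antisense RNA, had 4.27 and 3.85 in the knockout arrays, against 4.38 and 4.07 in the control arrays, a log2 difference of -0.058 ± 0.086. Its other probe had 0.250 and 0.914 in the knockout arrays, against 1.07 and 1.04 in the control arrays, so that 1 array set its difference of -1.14.

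Of the other genes of the domain, Ascl2 and Kcnq1 were slightly higher. Ascl2, a basic helix-loop-helix transcription factor, had relative signals of 0.251 and 0.256 in the knockout arrays, against 0.223 and 0.210 in the control arrays, with a log2 difference of 0.23 ± 0.064 (SE; adjusted p = 0.349 in limma). Kcnq1, a potassium channel subunit, had 0.323 and 0.314 in the knockout arrays, against 0.267 and 0.284 in the control arrays, with a log2 difference of 0.21 ± 0.066 (SE; adjusted p = 0.370 in limma). The tetraspanin gene Cd81 differed by 0.090 ± 0.060, Tssc4 by -0.053 ± 0.081 and the nucleosome assembly gene Nap1l4 by -0.15 ± 0.10. Phlda2, a pleckstrin homology protein best known from the placenta, was close to background, with 0.0538 and 0.0410 in the knockout arrays and 0.0445 and 0.0542 in the control arrays. Over these 8 genes the differences ran between -0.18 and 0.23.

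**Figure D3:**
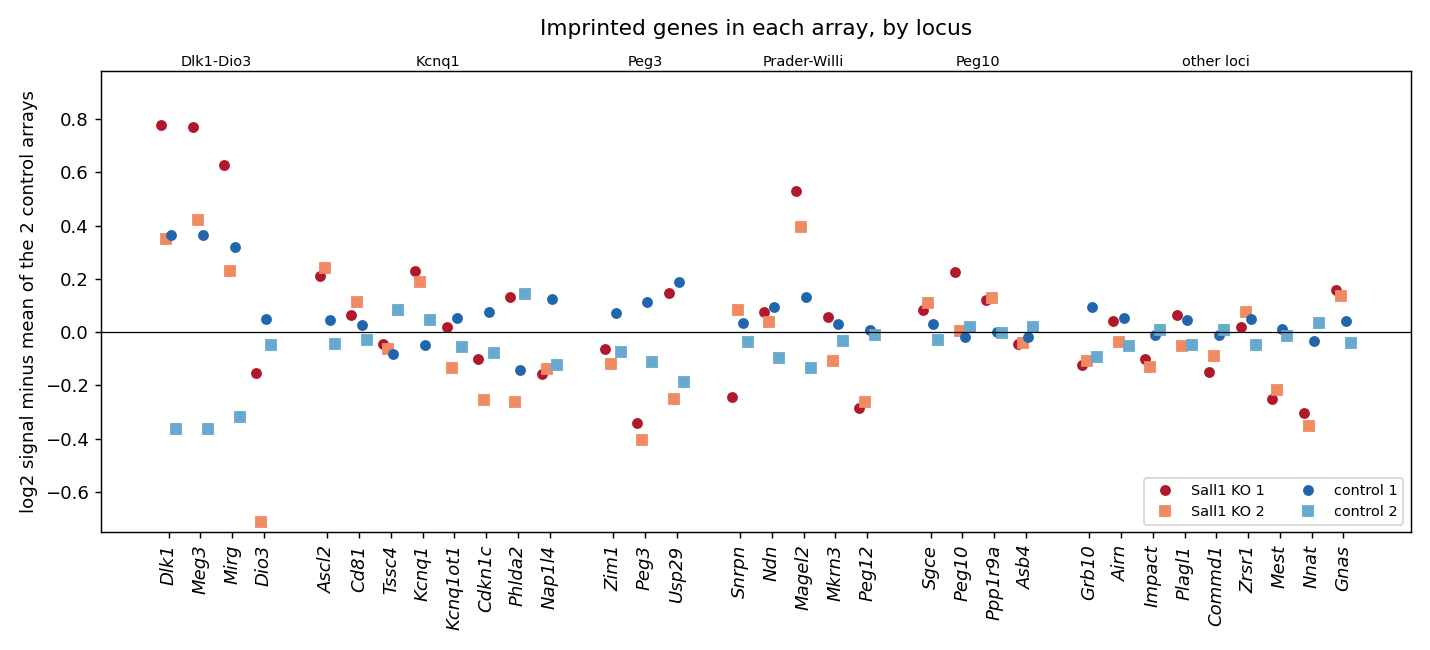
Log2 signal of each imprinted gene tested in each of the 4 arrays, minus the mean of its 2 control arrays, with red for Sall1 knockout and blue for control, circles for replicate 1 and squares for replicate 2; genes of a named domain stand in chromosomal order. The 4 points of Dlk1, Meg3 and Mirg spread widely within both groups, whereas for Nnat, Mest and Peg12 each pair of red points lies together below the blue pair.

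The Peg10 cluster of chromosome 6 held 4 genes with differences between -0.043 and 0.12. Peg10, a gene derived from a retrotransposon and needed in the placenta, had relative signals of 0.223 and 0.191 in the knockout arrays, against 0.188 and 0.194 in the control arrays, a log2 difference of 0.11 ± 0.098 (SE). Sgce, which encodes epsilon-sarcoglycan and shares the Peg10 control region, differed by 0.096 ± 0.059. Ppp1r9a, an actin-binding scaffold known as neurabin, had 4.02 and 4.03 in the knockout arrays, against 3.70 and 3.69 in the control arrays. Both Ppp1r9a probes separated, and the log2 difference of 0.12 ± 0.054 had an adjusted p of 0.449 in limma. Asb4, a substrate adaptor of ubiquitin ligases, differed by -0.043 ± 0.056.

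At the remaining loci the differences were between -0.12 and 0.15 apart from Mest and Nnat. Plagl1, a zinc finger transcription factor that acts on other imprinted genes, had relative signals of 112 and 103 in the knockout arrays, against 111 and 104 in the control arrays. Its log2 difference was 0.0054 ± 0.077 (SE; adjusted p = 0.981 in limma), with a 95% interval from -0.21 to 0.22, and it turned to -0.033 with median centring. Airn, the antisense RNA that silences Igf2r, differed by 0.0015 ± 0.072 and was -0.037 with median centring. Grb10, an adaptor that damps insulin and IGF receptor signalling, had 5.28 and 5.34 in the knockout arrays, against 6.15 and 5.40 in the control arrays. The Grb10 difference of -0.12 ± 0.088 (adjusted p = 0.598 in limma) rested on control replicate 1, and it was -0.022 without that array.

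Gnas, the stimulatory G protein alpha subunit, had relative signals of 82.0 and 80.7 in the knockout arrays, against 75.7 and 71.4 in the control arrays, and differed by 0.15 ± 0.063 (SE; adjusted p = 0.443 in limma). The mean over its 3 probes differed by 0.40, carried by a dim probe that was above background on 1 of the 2 control arrays and had 0.102 and 0.0444 in the knockout arrays, against 0.0727 and 0.0191 in the control arrays. That probe also stood in the array order of Dlk1, with the groups overlapping. Impact, a regulator of translation under amino acid shortage, and Commd1, a protein of copper handling, lay lower in both knockout arrays by 1.08-fold and 1.09-fold without passing. Zrsr1, a splicing factor gene lying within Commd1, differed by 0.047 ± 0.068 with overlap.

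Further probes mostly pointed the same way as the brightest. Of 18 tested genes with several probes, 24 further probes were on the array, and 22 had the same sign of difference as the probe used. The 22 include the further probes of Plagl1 and Airn, for which the probe used differed too little to have a direction. The exceptions in sign were the dimmer Peg12 probe and a Snrpn probe that differed by 0.024. One more Snrpn probe, annotated to a different RefSeq transcript from the one used, was above background on both control arrays (relative signals 0.0478 and 0.0448) and on neither knockout array (0.0167 and 0.0238). This probe is thus seen only through its control signals, and its difference has no exact fold. The lowest signal well above background of any probe was 0.0280 and 0.0357 on the knockout arrays. The control signals lay on average 1.46-fold above that limit, which is not specific to this probe. The brighter Snrpn probes differed by -0.079 and 0.024.

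**Figure D4:**
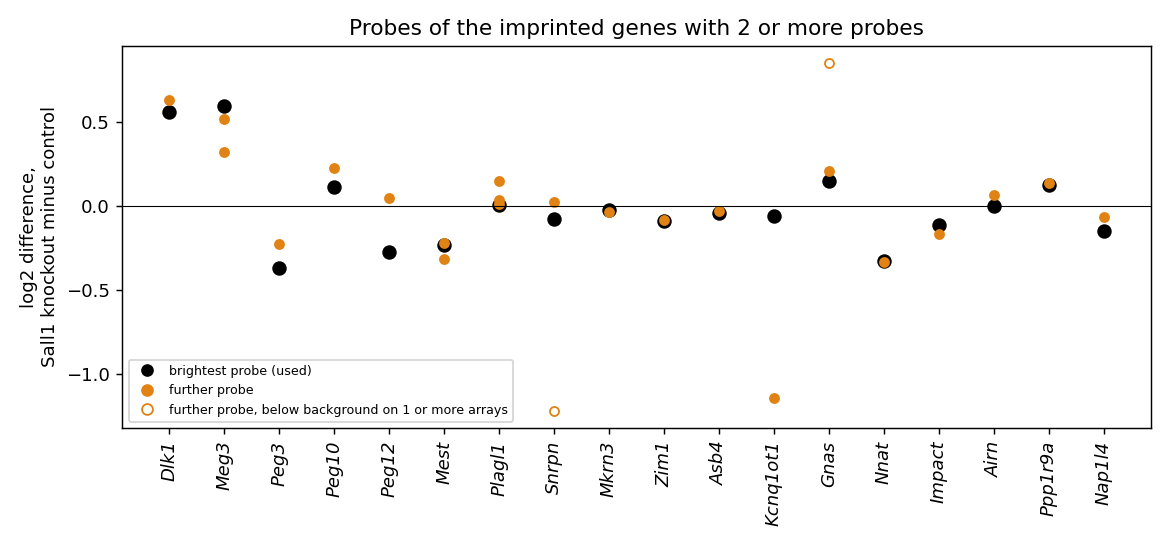
Log2 difference, Sall1 knockout minus control, of every probe of the 18 imprinted genes with several probes; black points are the brightest probe of a gene, orange points further probes, and open points further probes not above background on all 4 arrays, drawn at their measured values. Most probes of a gene lie close together, and the Kcnq1ot1 probe at -1.14 rests on 1 array. The open Snrpn point has no exact fold, as its probe was above background on neither knockout array.

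Imprinted genes outside the list were counted in the same way. Of 38 such genes 29 were tested, with a median log2 difference of 0.076 and 0 passing in limma over all genes tested. An unadjusted p under 0.05 was reached by 3 higher and 2 lower genes, 17.2% of the 29, against 12.7% of all genes tested (6.86% higher and 5.84% lower). Slc22a18, an organic cation transporter gene of the Kcnq1 domain, had relative signals of 0.654 and 0.653 in the knockout arrays, against 0.473 and 0.488 in the control arrays, 1.36-fold higher (adjusted p = 0.192 in limma). Osbpl5, an oxysterol-binding protein gene at the edge of the same domain, was 1.18-fold higher and Igf2r, which clears the growth factor IGF2, 1.16-fold higher, both with no overlap of the groups. Calcr, the calcitonin receptor, was 1.33-fold lower without overlap. The potassium channel gene Kcnk9, also counted as lower, was not well above background in the knockout arrays (relative signals 0.0307 and 0.0349). It was so in both control arrays (0.0525 and 0.0424). Kcnk9 was thus tested only because of its control signals, and its difference has no exact fold. None of these genes passed (adjusted p between 0.192 and 0.392 in limma).

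Igf2, the paternally expressed fetal growth factor that neighbours H19, had relative signals of 4.93 and 4.25 in the knockout arrays, against 5.32 and 4.03 in the control arrays. The groups overlapped, and the log2 difference was -0.015 ± 0.17 (SE; adjusted p = 0.977 in limma). Dcn, the matrix proteoglycan decorin, was 1.51-fold higher, with 12.9 and 10.8 in the knockout arrays and 11.3 and 5.39 in the control arrays. It showed the array order of Dlk1, with overlap, and is one of the stroma markers counted above.

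Genes that write or read imprints lay close together between the groups. Of 21 regulators, among them the DNA methyltransferases, Uhrf1, Zfp57, Trim28 and Ctcf, 18 were tested, with differences from -0.16 to 0.22 and a median of -0.030. None reached an unadjusted p under 0.05 in limma, against 12.7% of all genes tested (6.86% higher and 5.84% lower). After adjustment 0 passed over all genes tested, where 0% were called. Without overlap of the groups 4 lay higher (22.2%) and 6 lower (33.3%), against 21.8% and 27.4% of all genes tested.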

How the data were processed

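Total RNA of embryonic kidneys was labelled with Cy3 and hybridised to 4 one-colour Agilent arrays, per the labels. The deposited scanner files were written by Feature Extraction 10.7.3.1 for design 028005 (build mm9), per the file headers. The processed signal in them, as deposited, is an intensity corrected for background within each array, with no scaling from array to array. The value table the authors deposited holds the same intensities, within 1% for 100% of single-spot probes, and with more digits for control replicate 1, whose scanner file is rounded to at most 3 significant digits.

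Signals were divided by the 75th percentile of non-control spots (535, 523, 600 and 549 in knockout replicates 1 and 2 and control replicates 1 and 2) and set to log2. Control spots and outlier spots were left out, and spots of a probe averaged. A probe was kept where 1 group or both had it well above background on each array. No spot was saturated. Symbols came from RefSeq accessions (GRCm38.p6): 26413 probes matched and 29268 did not, and the brightest probe stood for a gene. The comparison used limma 3.58.1 under R 4.3.3 (eBayes, default prior, 2 residual and 1.80 prior degrees of freedom) with Benjamini-Hochberg adjustment over 25099 genes and sequences, and the fit was tested on simulated data. Precision is limited by the number of arrays.

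The imprinted genes, marker lists and tests were chosen with earlier results of these data known. Every listed gene is accounted for; values per array are given for a set list of leading genes, those with an unadjusted p under 0.05 or at least 1.3-fold apart, and neighbours in their domains. Other imprinted genes and regulators were named by unadjusted p or by a 1.5-fold difference, and Igf2 was added for its place beside H19. Alternatives changed the background correction, scaling, filter, outlier spots, probe choice, variance prior, array weights, source of values and threshold, and left out each array in turn.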

Additional observations from a re-analysis of the deposited data

How the results depend on the processing

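The small number of arrays limits what could be called. The deposited value table, which is not rounded for control replicate 1, kept direction and side of the threshold for all 33 imprinted genes. No paired analysis was possible because the labels give no replicate numbers shared between the groups. Over all genes tested, 0 were called in limma with the default prior (3187 at an unadjusted p under 0.05), 41 with normexp correction, 291 with the trended robust prior, 120 with the trended prior alone and 27 at an adjusted p under 0.1, and 0 with each array left out. Of the imprinted genes 0 were called, and 1, Nnat, with the trended robust prior. Imprinted genes lower without overlap numbered 11, and 7 with quantile normalization, 4 with a 1.2-fold limit and 0 with a 1.5-fold limit, and were 12 to 17 with an array left out. Those higher numbered 8, 2 with a 1.2-fold limit, 1 (Meg3) with a 1.5-fold limit, and 10 to 13 with an array left out. Leaving out an array raised these shares over all genes tested too, so the rise is not specific to imprinted genes. Over all genes the share lower went from 27.4% to between 38.2% and 42.3%. The share higher went from 21.8% to between 33.01% and 36.03%. With quantile normalization 25.5% of all genes lay lower without overlap. The median log2 difference of the imprinted genes, -0.043, ran from -0.054 to 0.041 with an array left out. Of 494 values of single imprinted genes under the alternatives, 474 kept direction and side of the threshold, 1 passed (Nnat) and 19 changed sign, for 10 genes whose main difference was at most 0.079 in size. Changes of sign apart from arrays left out were Plagl1 (-0.033) and Airn (-0.037) with median centring and Mkrn3 (0.017) and Phlda2 (0.071) with normexp. With an array left out the ranges were -0.054 to 0.064 for Plagl1, -0.038 to 0.15 for Ndn, -0.24 to 0.084 for Snrpn, -0.11 to 0.057 for Mkrn3, -0.25 to 0.15 for Usp29, -0.26 to 0.13 for Phlda2, -0.13 to 0.018 for Kcnq1ot1, -0.0011 to 0.094 for Zrsr1, -0.051 to 0.054 for Airn and -0.14 to 0.029 for Tssc4. The cause of these changes was not tested.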
